A study of Mus musculus with 23 samples.

Results

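Type 1 innate lymphoid cells (ILC1s) of the mouse salivary gland (SG) were set against natural killer (NK) cells of the liver by ATAC-seq, which counts transposase insertions in open chromatin. The comparison used every peak of 1 shared peak set, 51412 regions with a median width of 999 bases, of which 51292 passed a filter on low counts. It rests on 4 of the series' 23 libraries: SG ILC1 replicates 1 and 2, and liver NK replicates 1 and 2. The 2 liver ILC1 libraries and the 2 spleen NK libraries of the same count table entered the same fit and are given beside these where they place a value. The series profiles ILC1s and NK cells across organs, and the question here is how near SG ILC1s stand to tissue NK cells at NK lineage loci such as Eomes and Zeb2.

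Each library came from 50000 sorted cells. The design text describes the ILC1 gate of both organs as NK1.1+NKp46+CD49a+ and the NK gate of both organs as NK1.1+NKp46+CD49a-CD49b+. The samples' own cell type labels differ from it and read GzmC+GzmcFM+ ILC1 cells, a description built on granzyme C and its fate map, and S1pr5eGFP+ NK cells, a description built on a reporter of the S1pr5 gene. Itga1 (CD49a), Itga2 (CD49b), Gzmc and S1pr5 are therefore genes of the gate under one description or the other, and their values are given as descriptions of the sorted populations only. Salivary glands were digested for 1 hour with collagenase III and DNase I, livers for 30 minutes with collagenase D, and spleens were dissociated mechanically, so cell type, organ and digestion cannot be told apart between SG ILC1 and liver NK libraries. The labels give no strain, age or sex, and do not say whether mice were pooled.

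NK cells and ILC1s both carry NK1.1 and NKp46 and make interferon-gamma. The T-box factors T-bet (Tbx21) and Eomes direct NK cell development, Eomes is low in liver ILC1s, and Zeb2, a zinc finger repressor that acts downstream of T-bet, promotes terminal NK maturation. Mouse SG ILC1s are known to carry Eomes beside tissue-residency molecules such as CD49a and CD103, and their development depends on TGF-beta signalling.

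The 250 bases upstream of 4 gene starts are shown because their peaks mark the kinds of outcome described further on. These are Eomes, level with liver NK on TMM scaling, Cxcr6 and Gzmc, more open in SG ILC1s, and S1pr5, less open. Sequences are from RefSeq on GRCm38.p6 and are written in the gene's reading direction; capitals mark matches to the motifs searched below, which were a RUNX match on the reverse strand and a CRE match, both in Gzmc, and none in the other windows.
Eomes, chr9:118477939-118478188, + strand: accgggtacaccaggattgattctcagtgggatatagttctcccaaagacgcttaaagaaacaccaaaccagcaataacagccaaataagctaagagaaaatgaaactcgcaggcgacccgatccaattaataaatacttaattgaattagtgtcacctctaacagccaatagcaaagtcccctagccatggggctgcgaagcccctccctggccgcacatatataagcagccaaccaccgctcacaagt
Cxcr6, chr9:123806227-123806476, + strand: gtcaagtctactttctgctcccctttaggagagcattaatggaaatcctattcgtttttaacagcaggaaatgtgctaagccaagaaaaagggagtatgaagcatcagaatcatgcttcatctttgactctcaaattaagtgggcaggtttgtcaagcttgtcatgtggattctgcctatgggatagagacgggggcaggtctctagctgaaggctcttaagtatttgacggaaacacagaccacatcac
Gzmc, chr14:56234658-56234907, - strand: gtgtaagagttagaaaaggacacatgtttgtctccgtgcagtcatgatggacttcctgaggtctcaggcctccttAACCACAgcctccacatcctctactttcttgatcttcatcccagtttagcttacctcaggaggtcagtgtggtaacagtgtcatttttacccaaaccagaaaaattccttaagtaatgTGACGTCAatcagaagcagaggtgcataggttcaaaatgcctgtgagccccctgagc
S1pr5, chr9:21248444-21248693, - strand: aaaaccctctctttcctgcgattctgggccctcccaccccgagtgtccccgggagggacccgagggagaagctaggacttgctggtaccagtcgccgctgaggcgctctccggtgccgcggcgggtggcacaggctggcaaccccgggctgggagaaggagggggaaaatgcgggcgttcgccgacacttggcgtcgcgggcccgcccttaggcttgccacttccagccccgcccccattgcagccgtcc

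Total counts in peaks were 16058700 and 26944890 in SG ILC1 libraries, 5928045 and 9957335 in liver ILC1 libraries, 14270504 and 11101944 in spleen NK libraries, and 6390417 and 5609587 in liver NK libraries. Levels below are CPM (counts scaled to a common library size) on library sizes adjusted by TMM, edgeR's trimmed mean of M-values. The liver NK libraries held more of their counts in weak peaks. On library totals without TMM, the 5th percentile of peak levels was 0.934 and 0.705 CPM in SG ILC1 libraries. In liver NK libraries it was 2.97 and 2.67 CPM on the same scale. Promoter peaks took 61.35% and 61.89% of counts in SG ILC1 libraries and 53.59% and 55.38% in liver NK libraries. Fold changes therefore moved with peak strength under TMM. In 5 equal groups of peaks from the weakest to the strongest, the median log2 fold change of SG ILC1 over liver NK was -0.79, -0.65, -0.23, 0.38 and 0.68 with TMM. A direction is given below as higher or lower only where edgeR's quasi-likelihood test gave an adjusted p below 0.05 with the same sign under all 5 scalings tried: TMM, loess offsets that remove the trend with peak strength, DESeq2's size factors (RLE), library totals alone, and TMM from promoter peaks. Fold changes and p-values printed are those of TMM unless another is named.

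**Figure D1:**
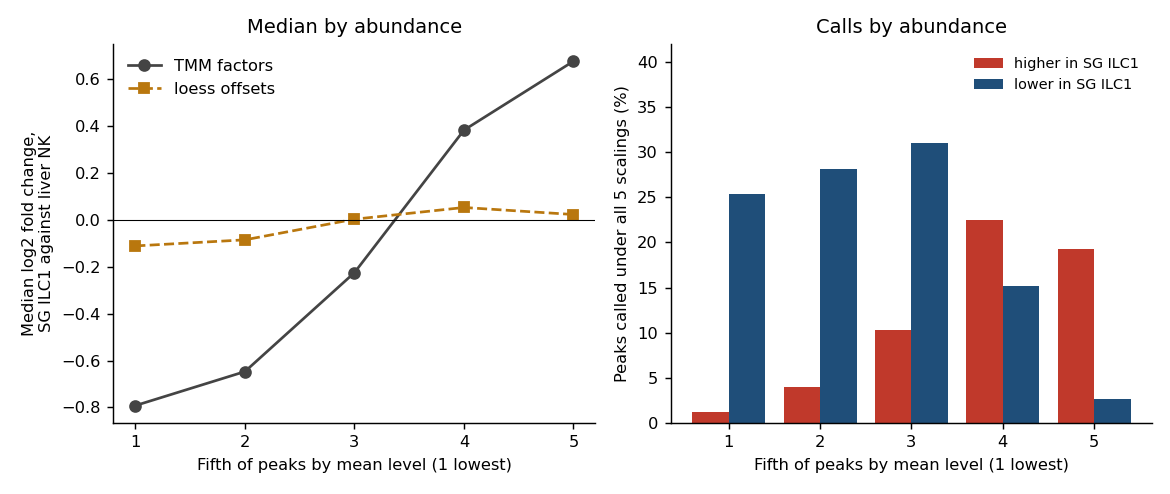
Left, median log2 fold change (SG ILC1 over liver NK) in 5 equal groups of peaks from the weakest to the strongest, with TMM and with loess offsets. Right, percent of the peaks of each group higher or lower in SG ILC1 under all 5 scalings; the TMM medians run between -0.79 and 0.68.

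How many peaks differed between SG ILC1s and liver NK cells depended on the scaling. With TMM, 31524 of 51292 peaks (61.5%) passed the test, 16093 higher (31.4%) and 15431 lower (30.1%) in SG ILC1s, so that 51.0% of calls were higher. With loess offsets 24090 peaks (47%) passed, and 16358 (31.9%) did so in the same direction under all 5 scalings. The share of calls that were higher was 46.1% with loess offsets, 31.9% with library totals and 29.7% with TMM from promoter peaks, and the median of all peaks shifted to -0.361 with library totals and -0.392 with promoter TMM. Of the calls under all 5 scalings, 5867 peaks (11.4%) were higher and 10491 (20.5%) lower. These percentages are the background for every count of peaks of this comparison below. They differ with the kind and strength of peak, as the next paragraph gives. The gene lists below were not matched for kind or strength, and how far either enters their counts was not tested. The libraries of the pair did not overlap in level at 41297 peaks (80.5%), so a lack of overlap at a single peak carries little. The gene sums, which add the counts of all peaks assigned to a gene, were higher for 2556 of 18407 genes (13.9%) and lower for 3760 (20.4%). The same rule gave fewer calls for liver ILC1s against liver NK cells, 2816 peaks (5.49%) higher and 3806 (7.42%) lower. It gave 6069 (11.8%) higher and 9531 (18.6%) lower for SG ILC1s against liver ILC1s. These comparisons share libraries, which differ in depth, and no test compared their counts.

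The direction of the calls differed with the kind of peak. Promoter peaks were higher in 12.9% and lower in 11.2% of cases. Intergenic peaks were higher in 9.48% and lower in 27.2%, and peaks with no assigned gene were higher in 9.05% and lower in 33.8%. By strength, 1.23% of the weakest of 5 equal groups were higher and 25.4% lower in SG ILC1s, and 19.3% of the strongest were higher and 2.6% lower. The low share of lower calls among the strongest depended on the scaling. With loess offsets alone 19.3% of that group were higher and 18% lower. Those offsets remove the trend with peak strength by design, so they cannot tell where the trend comes from.

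Peaks were also sorted by a contrast that uses neither SG ILC1 nor liver NK libraries, spleen NK over liver ILC1, again under all 5 scalings. These populations differ in organ and digestion as well as in cell type, and the contrast cannot tell these apart. The names NK kind and ILC1 kind below therefore stand for the side of this contrast, not for cell type alone. Of the 4999 peaks more open in spleen NK cells, 346 (6.92%) were higher and 1377 (27.5%) lower in SG ILC1s than in liver NK cells. Of the 6294 peaks more open in liver ILC1s, 1797 (28.6%) were higher and 1128 (17.9%) lower. The remaining 39999 peaks were higher in 9.31% and lower in 20% of cases. No test compared these shares. Peaks of the ILC1 kind were not all low in liver NK cells. The Sept9 peak described below was of this kind and was most open in liver NK cells, while the Cxcr6 promoter peak, also of this kind, was low there. How many peaks followed either pattern was not counted. The splits of both kinds depended on the scaling used to define them. With TMM alone for both steps, 48.3% of 10143 peaks of the NK kind were higher and 22.1% lower, and 32.9% of 10223 peaks of the ILC1 kind were higher and 30.9% lower. With loess offsets for both steps, 10.7% of the NK kind were higher and 40.3% lower, and 41.8% of the ILC1 kind were higher and 17% lower.

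At Eomes, the promoter of SG ILC1s was as open as that of liver NK cells on TMM scaling, and well above that of liver ILC1s. The gene lies at chr9:118478186-118486132 on the + strand and has 1 assigned peak, which covers its promoter at chr9:118477403-118479687. That peak held 63.5 and 81.2 CPM in SG ILC1s, 27.1 and 25.8 CPM in liver ILC1s, 123.8 and 112.4 CPM in spleen NK cells, and 64.1 and 76.3 CPM in liver NK cells. SG ILC1 and liver NK libraries overlapped, liver ILC1 libraries lay below both, and spleen NK libraries above. The log2 fold change of SG ILC1 over liver NK was 0.05 ± 0.19 (SE; adjusted p = 0.843) with TMM, but it was negative and passed the test with promoter TMM (-0.33, adjusted p = 0.0414) and with loess offsets (-0.64, adjusted p = 2.09e-06). Over liver ILC1s the promoter was higher by 1.46 (adjusted p = 2e-11) under all 5 scalings. It was lower than in spleen NK cells, also under all 5. A level in a sorted population does not separate fewer cells open at a site from less opening in each cell.

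Around Eomes some peaks, unlike the promoter, were lower under all 5 scalings. Of the 21 peaks within 200 kb of the gene, none was higher in SG ILC1s than in liver NK cells, 6 were lower, and 7 were called under no scaling. Over all peaks 11.4% were higher and 20.5% lower, and no test compared the window with these shares. The peak 61.8 kb upstream, assigned by the authors to Platr11, held 14.6 and 21.9 CPM in SG ILC1s, 11.8 and 8.29 CPM in liver ILC1s, and 46.7 and 50.03 CPM in liver NK cells (log2 fold change over liver NK -1.39 ± 0.18, adjusted p = 6.18e-13). Both ILC1 populations lay below liver NK cells there, SG ILC1s the nearer of the 2 (0.90 over liver ILC1s). The peak 87.9 kb upstream held 6.50 and 7.33 CPM in SG ILC1s, 12.1 and 11.8 CPM in liver ILC1s, and 20.8 and 19.95 CPM in liver NK cells (-1.55), so that here SG ILC1s were the lowest. The other lower peaks lay 81.6 kb (-0.73), 54.1 kb (-0.78) and 26.9 kb (-0.87) upstream and 128.7 kb downstream of the start (-1.47, assigned to Itga9). The call of the peak at 81.6 kb was lost without SG ILC1 replicate 1 (-0.55, adjusted p = 0.0658).

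Against liver ILC1s the same window leaned the other way, with 6 of 21 peaks higher in SG ILC1s and 2 lower. Over all peaks 11.8% were higher and 18.6% lower in that comparison. The higher ones were the promoter and the peaks 112.6 kb (2.05), 72.8 kb (0.83) and 61.8 kb (0.90) upstream and 8.5 kb (1.19) and 41.0 kb (1.58) downstream. At 112.6 kb upstream the levels were 14.6 and 17.1 CPM in SG ILC1s, 5.53 and 2.54 CPM in liver ILC1s, and 13.6 and 12.9 CPM in liver NK cells, and no scaling separated SG ILC1s from liver NK cells. Liver ILC1s against liver NK cells gave 0 higher and 10 lower of the 21 peaks, with 5.49% and 7.42% of all peaks as background. SG ILC1s against spleen NK cells gave 1 higher and 10 lower, with 20.4% and 23.1% of all peaks as background.

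**Figure D2:**
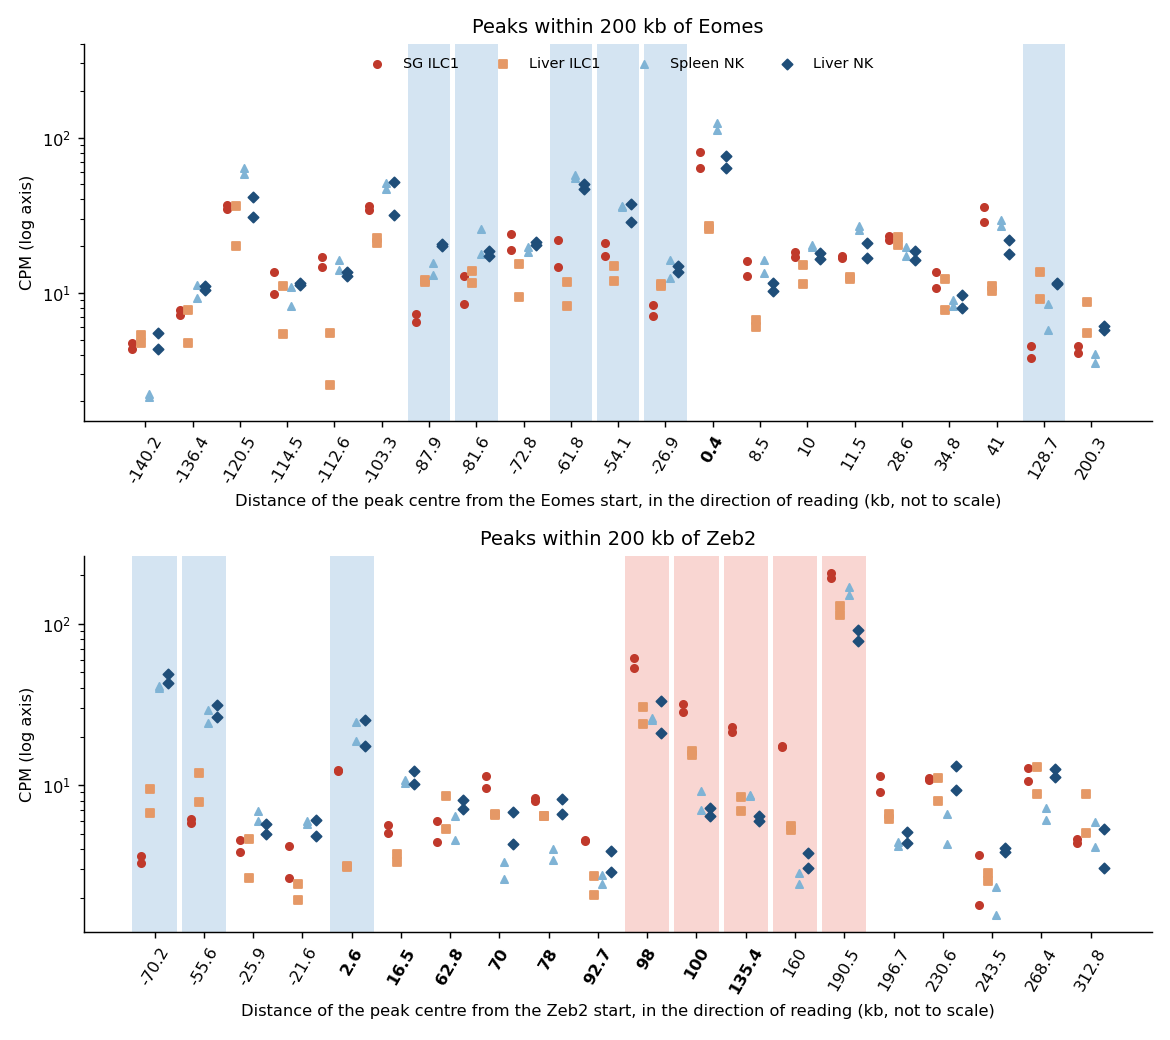
CPM per library (TMM-adjusted, log axis) at each of the 21 peaks around Eomes and the 20 peaks around Zeb2, in order of distance from the gene start in its reading direction; bold marks peaks assigned to the gene. Blue shading marks peaks lower and red shading peaks higher in SG ILC1 than in liver NK under all 5 scalings, 6 and 0 around Eomes and 3 and 5 around Zeb2.

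At Zeb2, SG ILC1s were more open than liver NK cells towards the end of the gene and beyond it, and less open at the start and upstream of it. The gene lies at chr2:44983512-45117442 on the - strand. Of the 20 peaks within 200 kb, 5 were higher and 3 lower in SG ILC1s than in liver NK cells, against 11.4% and 20.5% of all peaks. The peak 100 kb into the gene held 32.0 and 28.2 CPM in SG ILC1s, 16.2 and 15.4 CPM in liver ILC1s, and 7.18 and 6.43 CPM in liver NK cells (log2 fold change over liver NK 2.14 ± 0.24, adjusted p = 2.94e-18). Both SG ILC1 libraries lay above both liver ILC1 libraries, and those above both liver NK libraries. The neighbouring peak at 98.0 kb held 61.5 and 52.9 CPM in SG ILC1s and 21.1 and 33.0 CPM in liver NK cells (1.09). Higher levels were also found at 135.4 kb (22.9 and 21.2 CPM in SG ILC1s, 6.40 and 5.95 CPM in liver NK cells, 1.83) and at 160.0 kb (17.1 and 17.4 CPM in SG ILC1s, 3.79 and 3.06 CPM in liver NK cells, 2.32). The peak at 190.5 kb, assigned to the neighbouring gene Gtdc1, was the strongest of the window with 207.3 and 191.6 CPM in SG ILC1s and 78.3 and 91.7 CPM in liver NK cells (1.23).

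The largest difference around Zeb2 was a loss. The peak 70.2 kb upstream of the gene start, assigned to Gm28643, held 3.63 and 3.29 CPM in SG ILC1s, 9.42 and 6.73 CPM in liver ILC1s, 41.3 and 40.2 CPM in spleen NK cells, and 42.8 and 48.9 CPM in liver NK cells. Both NK populations lay above both ILC1 populations there, with SG ILC1s the lowest of the 4 (over liver NK -3.74 ± 0.22, adjusted p = 3.53e-62). The peak 55.6 kb upstream followed the same order, with 5.82 and 6.14 CPM in SG ILC1s, 11.8 and 7.90 CPM in liver ILC1s, and 26.2 and 31.2 CPM in liver NK cells (-2.26).

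The Zeb2 peak nearest the gene start, 2.6 kb into the gene, stood between the populations. It held 12.3 and 12.4 CPM in SG ILC1s, 3.14 and 3.12 CPM in liver ILC1s, 24.5 and 18.8 CPM in spleen NK cells, and 17.5 and 25.4 CPM in liver NK cells. SG ILC1s were above liver ILC1s by 1.98 and below liver NK cells (-0.79, adjusted p = 0.000811), but without liver NK replicate 2 the second call was lost (-0.50, adjusted p = 0.11). Over the 9 peaks assigned to Zeb2, 3 were higher and 1 lower, and their sum was 159.7 CPM in SG ILC1s and 113.4 CPM in liver NK cells (0.49, adjusted p = 0.00115). That sum no longer passed the test with loess offsets (0.13, adjusted p = 0.342) or without liver NK replicate 1 (0.38, adjusted p = 0.0538). Against liver ILC1s 5 peaks of the window were higher and 2 lower, with 11.8% and 18.6% of all peaks as background. Against spleen NK cells the counts were 9 and 4, with 20.4% and 23.1% as background.

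NK lineage transcription factor genes showed both gains and losses. Of 122 peaks assigned to the 16 factors of this list, 21 (17.2%) were higher and 14 (11.5%) lower in SG ILC1s, with a median log2 fold change of 0.358 with TMM and 0.048 with loess offsets, against 0.052 and 0.013 over all assigned peaks. The list includes Eomes and Zeb2. An intron peak of Tbx21, which encodes T-bet, held 23.5 and 33.9 CPM in SG ILC1s and 13.3 and 12.2 CPM in liver NK cells (1.17, adjusted p = 6.53e-08), with liver ILC1s at 22.6 and 24.9 CPM beside SG ILC1s. Runx3, a partner of T-box factors in NK cells and in resident lymphocytes, had 3 higher peaks of 7 and none lower. One of them held 14.9 and 14.2 CPM in SG ILC1s, 5.68 and 2.44 CPM in liver ILC1s, and 4.57 and 4.99 CPM in liver NK cells (1.61), so that neither other population reached the SG ILC1 level. Stat4, which carries the interleukin-12 signal, had 5 higher and 1 lower of 17 peaks, and Id2, needed by all innate lymphoid cells, 1 higher of 4 (1.12). None of the 5 Irf8 peaks and none of the 8 Prdm1 peaks was called under all 5 scalings.

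Klf2, a factor that promotes circulation through S1pr1, was the member of that list with a loss at every peak, 3 of 3. The peak about 11 kb downstream of the promoter peak, at chr8:72329555-72330331, held 0.890 and 1.03 CPM in SG ILC1s, 4.94 and 3.61 CPM in liver ILC1s, 15.96 and 18.6 CPM in spleen NK cells, and 12.9 and 17.2 CPM in liver NK cells. SG ILC1s were the lowest of the 4 populations, and the difference from liver NK cells was -3.95 ± 0.33 (adjusted p = 2.04e-30). At the promoter the difference was -0.65, and it did not pass without liver NK replicate 2 (-0.34, adjusted p = 0.247). Gata3, which ILC1s and ILC2s use, split: an intron peak was higher (1.17), and the promoter peak was lower (-0.68), a call lost without SG ILC1 replicate 1 (-0.62) or without liver NK replicate 2 (-0.57). Ikzf2, which encodes Helios and stands on the residency and ILC1 list, had 3 lower peaks of 10, among them an intron peak with 3.28 and 3.09 CPM in SG ILC1s and 21.7 and 19.95 CPM in liver NK cells (-2.71).

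Among genes of NK surface identity and maturation, lower calls outnumbered higher ones. Of 49 peaks assigned to these 12 genes, 17 (34.7%) were lower and 1 (2.04%) higher, and 7 of the 12 gene sums were lower and none higher. Without the gate genes Itga2 and S1pr5, 15 of 37 peaks were lower and none higher, as were 6 of 10 gene sums. The median log2 fold change of these peaks was -0.227 with TMM and -0.553 with loess offsets. S1pr1, which lets lymphocytes leave tissue towards sphingosine-1-phosphate, held 6.77 and 5.19 CPM at its promoter in SG ILC1s, 12.9 and 12.7 CPM in liver ILC1s, 34.5 and 29.5 CPM in spleen NK cells, and 25.7 and 21.9 CPM in liver NK cells. SG ILC1 libraries were the lowest, liver ILC1 libraries next and NK libraries of both organs the highest, and the log2 fold change over liver NK was -2.01 ± 0.22 (adjusted p = 4.15e-19).

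S1pr5, the NK cell egress receptor and a gene of the NK label, is described without weight as a result. A promoter peak at chr9:21246276-21246848 held 1.71 and 1.32 CPM in SG ILC1s and 10.2 and 15.6 CPM in liver NK cells (-3.11). The RefSeq start window printed above lies in the next peak, chr9:21248185-21248812, which the authors assigned to RP23-186O3.14 and which held 3.90 and 4.98 CPM in SG ILC1s and 15.3 and 17.5 CPM in liver NK cells (-1.87). Itga2, the CD49b gene of the NK gate, had 1 peak higher (0.81) and 1 lower (-1.34) of 9; the higher call was lost without liver NK replicate 1 (0.54, adjusted p = 0.0611) and the lower call without liver NK replicate 2 (-0.76, adjusted p = 0.099).

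Cx3cr1, Cma1, Klrg1 and Itgam had lower peaks too. Cx3cr1, the fractalkine receptor of mature NK cells, was lower at 3 of 7 peaks, and an intron peak held 1.30 and 1.03 CPM in SG ILC1s, 4.34 and 4.78 CPM in liver ILC1s, and 16.6 and 19.0 CPM in liver NK cells (-3.96). Cma1, a mast cell chymase gene beside the granzyme cluster, was lower at both of its peaks, and the one with the larger fold held 0.821 and 0.453 CPM in SG ILC1s and 11.8 and 11.1 CPM in liver NK cells (-4.24). Klrg1, an inhibitory receptor of terminally mature cells, was lower at 2 of 6 peaks, with 2.60 and 2.39 CPM in SG ILC1s and 10.96 and 13.7 CPM in liver NK cells at a promoter peak (-2.31). Itgam, the CD11b gene used to stage NK maturation, was lower at 1 of 6 (-0.87). At the Cx3cr1 and Cma1 peaks SG ILC1s lay below liver ILC1s as well, under all 5 scalings, and at the Klrg1 peak no scaling separated the 2 ILC1 populations.

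The Ly49 and NKG2 receptor genes had few calls under all 5 scalings. Of 41 peaks at 15 of the 17 genes listed, 3 (7.32%) were lower and none higher, and 3 of 15 gene sums were lower. With loess offsets alone 12 peaks were lower and 8 higher, and 7 gene sums lower and 2 higher. Those offsets called 25.3% of all peaks lower and 21.6% higher, and 25.8% of all gene sums lower and 22.7% higher. No test compared the list with these shares. The median was 0.107 with TMM and -0.013 with loess offsets. The Klra8 promoter held 6.84 and 7.66 CPM in SG ILC1s, 3.14 and 1.66 CPM in liver ILC1s, and 4.31 and 5.31 CPM in liver NK cells. The Klra4 promoter held 6.57 and 5.68 CPM in SG ILC1s, 1.80 and 2.15 CPM in liver ILC1s, and 3.00 and 5.31 CPM in liver NK cells. Both were higher than in liver ILC1s under all 5 scalings (1.66 and 1.61), while the difference from liver NK cells passed with loess offsets (1.24 and 1.19) and not with TMM (0.60 and 0.58). Ly49 genes are near-identical neighbours, how reads that match several of them were handled is not given in the sources used here, and the split between members is therefore uncertain.

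Among genes of tissue residency and ILC1 identity, higher calls outnumbered lower ones. Of 129 peaks assigned to 20 genes, 35 (27.1%) were higher and 16 (12.4%) lower, and 8 of 20 gene sums were higher and 3 lower. Without the gate gene Itga1, 29 of 116 peaks were higher and 16 lower, and 7 of 19 gene sums were higher and 3 lower. The whole list's median was 0.365 with TMM and 0.434 with loess offsets. Cxcr6, the receptor that holds lymphocytes in liver and other tissues, was higher at all 3 of its peaks. Its promoter peak at chr9:123806040-123806853 held 21.3 and 24.2 CPM in SG ILC1s, 25.6 and 26.4 CPM in liver ILC1s, 2.46 and 1.66 CPM in spleen NK cells, and 3.92 and 2.41 CPM in liver NK cells (over liver NK 2.82 ± 0.28, adjusted p = 5.88e-23). The 2 ILC1 populations stood together and the 2 NK populations stood together. Zfp683, which encodes the residency factor Hobit, was higher at 4 of 5 peaks and followed the same division, with 34.8 and 45.7 CPM in SG ILC1s, 30.8 and 40.1 CPM in liver ILC1s, and 12.9 and 8.53 CPM in liver NK cells at a promoter peak (1.90).

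Itgae and Rgs1 had peaks with higher levels in SG ILC1s than in liver ILC1s as well. Itgae, which encodes the CD103 chain that binds epithelial E-cadherin, held 75.5 and 83.5 CPM at an intron peak in SG ILC1s, 26.0 and 34.9 CPM in liver ILC1s, and 19.8 and 18.7 CPM in liver NK cells (2.05). An exon peak of the same gene ran the other way, with 5.27 and 10.3 CPM in SG ILC1s and 18.3 and 24.0 CPM in liver NK cells (-1.41; -2.08 without SG ILC1 replicate 2). Rgs1, a brake on chemokine receptor signalling, was higher at 3 of 6 peaks, and a promoter peak held 25.5 and 22.3 CPM in SG ILC1s, 5.24 and 8.19 CPM in liver ILC1s, and 5.22 and 4.67 CPM in liver NK cells (2.27). Inpp4b, a lipid phosphatase with 47 assigned peaks, had 12 higher and 6 lower. Cd69 had 1 higher of 5, and none of the 6 Cd200r1 peaks was called under all 5 scalings. Itga1, the CD49a gene of the ILC1 gate, was higher at 6 of 13 peaks, with 66.3 and 71.4 CPM in SG ILC1s, 22.4 and 33.8 CPM in liver ILC1s, and 13.2 and 14.0 CPM in liver NK cells at its promoter (2.34).

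Il7r, the interleukin-7 receptor that marks liver ILC1s, went against its list. All 3 of its peaks were lower in SG ILC1s than in liver NK cells. At chr15:9528012-9528771 the levels were 3.90 and 2.64 CPM in SG ILC1s, 23.3 and 29.9 CPM in liver ILC1s, 9.49 and 9.96 CPM in spleen NK cells, and 10.6 and 11.3 CPM in liver NK cells. SG ILC1s lay below liver NK cells (-1.77 ± 0.27, adjusted p = 6.35e-10) and liver ILC1s above them, both under all 5 scalings, so the 2 ILC1 populations stood on opposite sides of the NK level.

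**Figure D3:**
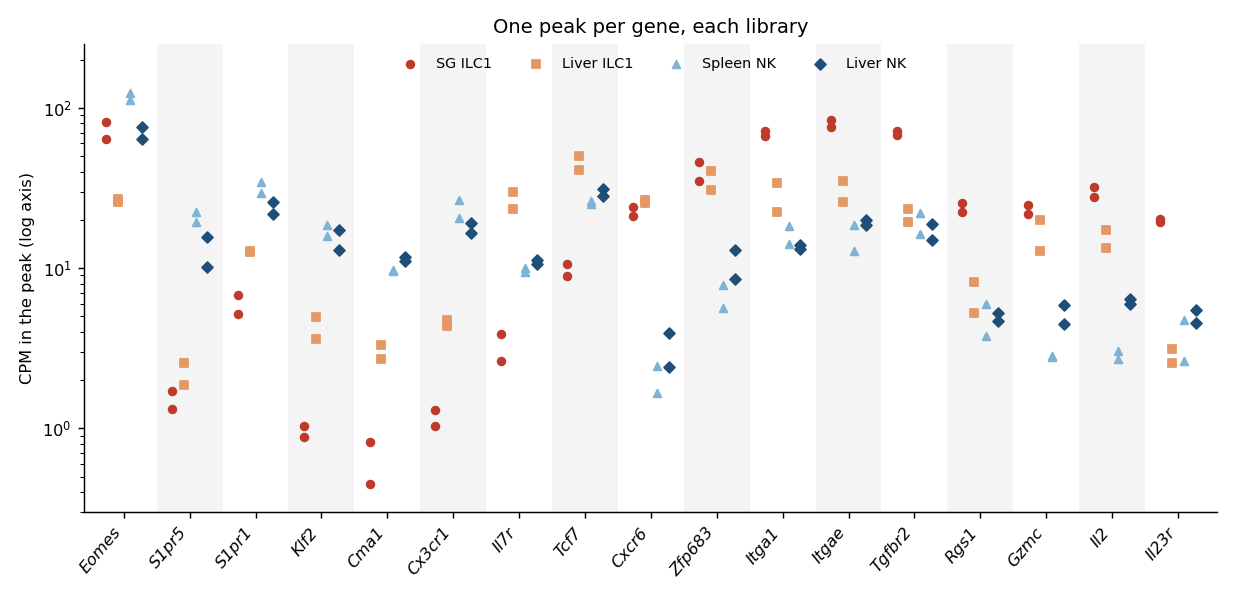
CPM per library (TMM-adjusted, log axis) at 1 peak of each of 17 genes named in the text, in SG ILC1, liver ILC1, spleen NK and liver NK libraries (2 points each). Cxcr6 separates ILC1 from NK libraries, Tgfbr2 sets SG ILC1 libraries above the rest, and Il7r sets SG ILC1 libraries below the rest.

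Higher calls also outnumbered lower ones among genes of the TGF-beta pathway. Of 136 peaks assigned to 18 genes, 37 (27.2%) were higher and 12 (8.82%) lower, and 6 of 18 gene sums were higher and none lower. Their median was 0.452 with TMM and 0.386 with loess offsets. Tgfbr2, the ligand-binding receptor chain, was higher at 9 of 13 peaks with none lower. With TMM alone 11 were higher, which put it among the 10 genes named for the most higher and no lower peaks with TMM. An intron peak at chr9:116160137-116161563 held 67.7 and 71.4 CPM in SG ILC1s, 19.3 and 23.4 CPM in liver ILC1s, 16.4 and 22.1 CPM in spleen NK cells, and 15.01 and 18.8 CPM in liver NK cells. SG ILC1s stood above the other 3 populations, and the log2 fold change over liver NK was 2.05 ± 0.19 (adjusted p = 3.23e-24). At the Tgfbr2 promoter the difference was 0.96.

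The calls included ligand, receptor and inhibitor genes. Tgfb1, the ligand, had 2 higher of 3 peaks, and Tgfbr1, the signalling receptor chain, 1 higher of 5. The repressors of SMAD proteins Ski and Skil had 3 higher of 13 and 1 higher of 4; a Ski intron peak held 113.8 and 103.4 CPM in SG ILC1s and 33.9 and 41.2 CPM in liver NK cells (1.53). The Skil peak held 15.7 and 11.9 CPM in SG ILC1s, 3.74 and 2.63 CPM in liver ILC1s, and 6.92 and 2.90 CPM in liver NK cells (1.46, and 2.25 without liver NK replicate 1). Nt5e, which encodes the ectoenzyme CD73, was higher at 3 of 4 peaks, with 54.9 and 63.0 CPM in SG ILC1s and 19.1 and 19.1 CPM in liver NK cells at its promoter (1.63). Ldlrad4, an inhibitor of SMAD phosphorylation, had 8 higher and 2 lower of 21 peaks.

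The receptor-activated SMAD gene Smad3 was mixed. Of 15 peaks 2 were higher and 1 lower. An intron peak held 9.31 and 11.2 CPM in SG ILC1s and 3.79 and 1.45 CPM in liver NK cells (1.94, and 2.83 without liver NK replicate 1), while a promoter peak held 1.03 and 0.865 CPM in SG ILC1s and 4.31 and 4.50 CPM in liver NK cells (-2.24). Smad7, the inhibitory SMAD, had 2 higher and 1 lower of 4.

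Cytotoxic granule and death ligand genes divided by member. Of 51 peaks, 14 (27.5%) were higher and 8 (15.7%) lower, with a median of 0.394 with TMM and 0.208 with loess offsets, over 13 of the 16 genes listed. Without the gate gene Gzmc, 13 of 49 were higher and 8 lower. Tnfsf10, the death ligand TRAIL, was higher at 4 of 7 peaks, with 55.1 and 54.2 CPM in SG ILC1s, 33.1 and 36.3 CPM in liver ILC1s, and 17.4 and 16.9 CPM in liver NK cells (1.67). Fasl was higher at 2 of 9 peaks (1.49 and 1.43). The perforin gene Prf1 had 1 higher of 4, with 50.4 and 54.5 CPM in SG ILC1s and 14.9 and 23.0 CPM in liver NK cells (1.48), and Srgn, the granule proteoglycan serglycin, 4 higher of 5.

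The granzymes were split. Gzmb had 1 peak higher of 4, where SG ILC1s held 25.0 and 25.0 CPM, liver ILC1s 20.5 and 28.6 CPM, and liver NK cells 8.88 and 9.17 CPM (1.47). Gzma was lower at 3 of 3 peaks, with 6.57 and 8.07 CPM in SG ILC1s and 17.5 and 17.4 CPM in liver NK cells at a promoter peak (-1.24). Gzmm was lower at 3 of 3 and Gzmk at 2 of 5. Gzmc, a gene of the ILC1 label, held 21.6 and 24.8 CPM in SG ILC1s, 12.9 and 20.1 CPM in liver ILC1s, and 5.87 and 4.50 CPM in liver NK cells at its promoter (2.15). Gzmb and Gzmc sit in one cluster of closely related genes, so reads shared between them cannot be assigned with certainty.

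Cytokine genes also moved one by one, with 6 (17.6%) of 34 peaks higher and 7 (20.6%) lower, at 13 of the 16 genes listed. Their median was 0.342 with TMM and -0.225 with loess offsets. Il2 and Csf2 were each higher at both of their peaks. The Il2 promoter held 50.8 and 49.2 CPM in SG ILC1s, 49.96 and 58.4 CPM in liver ILC1s, and 18.5 and 10.1 CPM in liver NK cells (1.78), so that both ILC1 populations lay above NK cells. A Csf2 peak, at the gene of the growth factor GM-CSF, showed the same order (1.23). Ifng, the defining cytokine of both cell types, was lower at 2 of 5 peaks, and an intergenic peak at chr10:118455663-118456295 held 1.03 and 0.741 CPM in SG ILC1s, 2.84 and 0.9753 CPM in liver ILC1s, 12.1 and 8.50 CPM in spleen NK cells, and 9.40 and 12.6 CPM in liver NK cells (-3.67). This Ifng peak was open in NK cells of both organs and nearly closed in ILC1s of both organs. Ccl5, a chemokine gene, had 1 higher and 3 lower of 9 peaks.

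The AP-1, Maf, Bach and NR4A factor genes had both kinds of call. Of 69 peaks, 17 (24.6%) were higher and 9 (13.0%) lower, and 8 of 17 gene sums were higher and none lower. Their median was 0.645 with TMM and 0.209 with loess offsets. The single peak of Jun held 327.0 and 348.6 CPM in SG ILC1s, 157.0 and 223.5 CPM in liver ILC1s, 327.5 and 259.5 CPM in spleen NK cells, and 145.9 and 177.4 CPM in liver NK cells (1.06). SG ILC1s and spleen NK cells shared the high level there. Junb (1.18), Fos (0.96 at one promoter peak and 1.44 at another, the second 2.18 without liver NK replicate 2) and Nr4a3 (1.09) were higher at their promoters. These are immediate early genes known to respond to tissue digestion, which differed between the organs, so cell type and digestion cannot be told apart here. Bach2, a repressor that restrains effector programmes, had 2 higher and 7 lower of 24 peaks, and one of the higher ones held 72.8 and 68.8 CPM in SG ILC1s, 23.6 and 34.2 CPM in liver ILC1s, and 17.9 and 20.4 CPM in liver NK cells (1.89).

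Among stem-like and precursor genes lower calls were the more numerous. Of 87 peaks, 27 (31.0%) were lower and 7 (8.05%) higher, and 8 of 13 gene sums were lower and none higher. Their median was -0.359 with TMM and -0.095 with loess offsets, and the list shares some of its genes, Il7r among them, with the lists above. Tcf7, which encodes the Wnt pathway factor TCF-1, was lower at both of its peaks, and the one at chr11:52273784-52275990 held 8.90 and 10.7 CPM in SG ILC1s, 41.0 and 49.9 CPM in liver ILC1s, and 30.9 and 28.3 CPM in liver NK cells (-1.59). SG ILC1s were below both liver populations there, with liver ILC1s the highest. Kit, the stem cell factor receptor, was lower at 5 of 6 peaks (-2.77 at an intron peak), Lef1 at 2 of 4 (-1.48 at an intron peak), and Myb and Slamf6 at both of their peaks. Bcl2, a survival gene on this list, ran against it with 5 higher and 1 lower of 27.

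**Figure D4:**
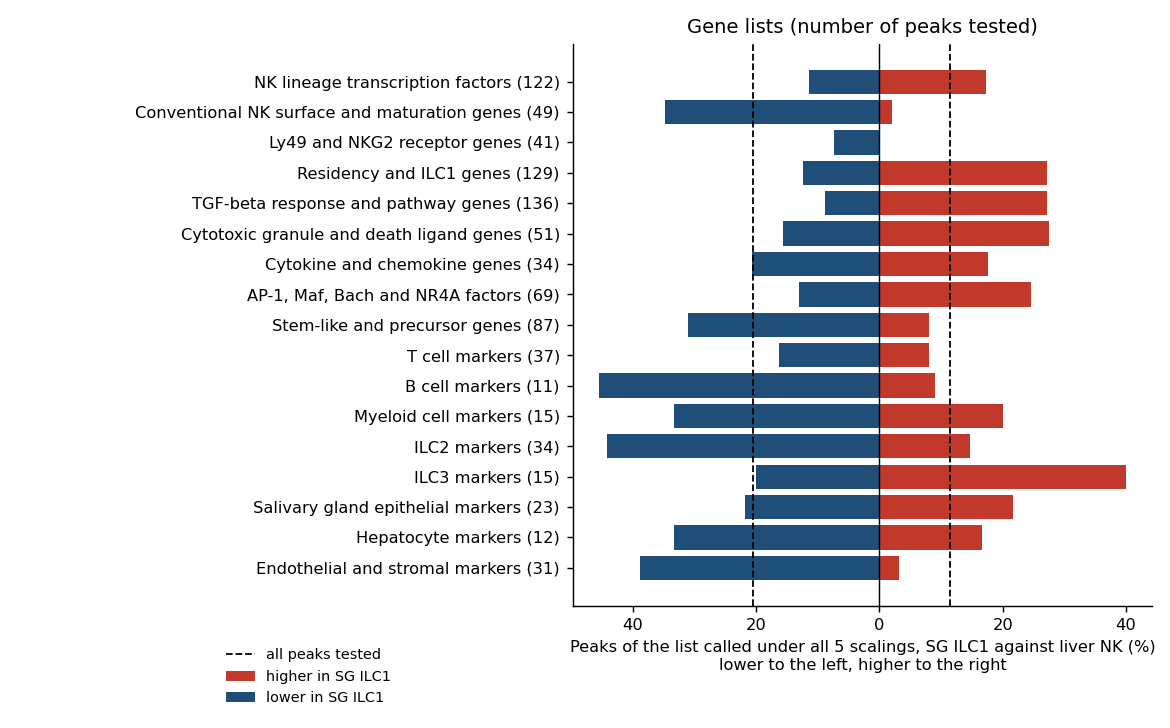
Percent of the peaks of each of 17 gene lists that were higher (right) or lower (left) in SG ILC1 than in liver NK under all 5 scalings; dashed lines mark all peaks tested, 11.4% higher and 20.5% lower. ILC3 markers (40%) and the cytotoxic, TGF-beta, residency and AP-1 lists reach farthest right, and B cell (45.5%), ILC2 (44.1%), endothelial (38.7%) and conventional NK (34.7%) lists farthest left.

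Marker genes of other cell types were read in the same way, and several of their lists had shares of lower peaks as large as the conventional NK and stem-like lists. No test compared the lists. Among T cell markers 3 of 37 peaks were higher and 6 lower, among B cell markers 1 of 11 and 5 (45.5% lower), and among myeloid markers 3 of 15 and 5. ILC2 markers had 5 higher and 15 lower of 34 (44.1% lower), of which Rora accounted for 1 and 10. Among ILC3 markers 6 of 15 were higher and 3 lower; 4 of the 6 belonged to Il23r, the interleukin-23 receptor, whose intron peak held 19.4 and 20.4 CPM in SG ILC1s, 2.54 and 3.12 CPM in liver ILC1s, and 4.57 and 5.47 CPM in liver NK cells (2.00). Salivary gland epithelial markers had 5 higher and 5 lower of 23 peaks, 4 of the 5 higher at Cdh1, the E-cadherin gene, and 1 at Epcam. No peak was assigned to the epithelial genes Krt5, Krt14 and Aqp5. Summed over promoter peaks the epithelial list held 123 and 117 CPM in SG ILC1s and 106 and 79.0 CPM in liver NK cells; its part in the results was not tested. Hepatocyte markers had 2 higher and 4 lower of 12, with no peak at Ttr or Hnf4a. Endothelial and stromal markers had 1 higher and 12 lower of 31 (38.7% lower), and Erg, an endothelial transcription factor gene, accounted for 5 of the lower ones.

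The peaks with the largest differences were mostly at genes outside these lists, Cxcr6 being the exception among those named higher. The 15 genes named by fold in the higher direction ran between 3.10 and 4.21 on the log2 scale. Of these, 14 were also higher than in liver ILC1s, against 11.8% of all peaks. The peaks were chosen for their fold and both comparisons use the same SG ILC1 libraries, so this agreement was partly fixed beforehand. A promoter peak of Snx29, a sorting nexin, at chr16:11422566-11423365, held 46.7 and 38.3 CPM in SG ILC1s, 5.83 and 4.10 CPM in liver ILC1s, 3.11 and 2.15 CPM in spleen NK cells, and 2.61 and 1.93 CPM in liver NK cells (4.21). Klrb1, of the NKR-P1 receptor family that includes NK1.1, held 35.2 and 34.0 CPM in SG ILC1s, 4.34 and 3.32 CPM in liver ILC1s, and 3.13 and 4.18 CPM in liver NK cells (3.25). Peaks of 2 subunits of the vacuolar proton pump were among them: Atp6v1e1 held 57.7 and 49.9 CPM in SG ILC1s, 9.12 and 10.1 CPM in liver ILC1s, and 4.96 and 5.31 CPM in liver NK cells (3.39), and Atp6v0a1 held 11.9 and 14.4 CPM in SG ILC1s, 4.64 and 1.85 CPM in liver ILC1s, and 0 and 1.93 CPM in liver NK cells (2.77 over liver NK replicate 2 alone). SG ILC1 libraries lay above both liver populations at each of these. Others were at Tdg, Mnat1, Cfap53, Atcayos, Pnrc1, Pde4a, Fyco1, Cxcr6, Trp53inp1 and D16Ertd472e.

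The 15 named in the lower direction ran between -5.91 and -4.56. All 15 were also lower than in liver ILC1s, against 18.6% of all peaks, with the same limit from the choice by fold. They were nearly closed in SG ILC1s, with 1 to 17 raw counts per SG ILC1 library and 29 to 126 per liver NK library. An As3mt peak, at an arsenic methyltransferase gene, held 0.274 and 0.247 CPM in SG ILC1s, 2.99 and 2.54 CPM in liver ILC1s, 22.8 and 14.0 CPM in spleen NK cells, and 13.7 and 17.4 CPM in liver NK cells (-5.91). Chst11, a chondroitin sulfotransferase gene, held 0.958 and 0.494 CPM in SG ILC1s, 5.53 and 2.34 CPM in liver ILC1s, 16.8 and 14.3 CPM in spleen NK cells, and 16.5 and 15.8 CPM in liver NK cells (-4.56). Eps15l1 followed the order of As3mt, high in NK cells of both organs. A Sept9 peak instead was open in liver cells of both kinds, with 0.821 and 0.124 CPM in SG ILC1s, 6.88 and 4.00 CPM in liver ILC1s, 0.819 and 1.17 CPM in spleen NK cells, and 12.5 and 10.8 CPM in liver NK cells. With so few SG ILC1 counts the size of these folds is loose: leaving out 1 library at a time moved the 15 between -7.00 and -3.70, and none changed sign. Others were at Tiam1, Btnl6, Fbxw27, Aatf, C1qa, Fndc3b, Mir7649, Ntn4, Mir294 and Magi3.

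Some genes differed at many of their peaks at once. Among those with the most higher peaks and none lower with TMM, Ankrd44 had 12 of 22 higher under all 5 scalings, Myo1e, a myosin motor gene, 10 of 13, Ppp1r16b, a phosphatase regulator, 9 of 18, and Lncpint and Rftn1 8 of 16 and 8 of 19. Among those with the most lower peaks and none higher with TMM, Plcb4, a phospholipase C gene, had 17 of 20, Sfi1 12 of 16, Nck2, an adaptor of receptor signalling, 11 of 13, and the cell polarity genes Pard3 and Pard3b 9 of 13 and 10 of 13.

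Motif letters were counted in the 32851 RefSeq start windows of 300 bases (250 before to 50 after the start), on both strands. The CRE letters TGACGTCA, the site of CREB and ATF factors, stood in 1.79% of all windows, in 3.32% of the 12698 windows on a tested peak, in 5.65% of the 1646 windows on a peak higher in SG ILC1s, and in 1.52% of the 791 windows on a lower peak. The KLF letters GGGTGTG stood in 7.95% of all windows, 8.39% of those on a peak, 8.87% of those on a higher peak and 11.3% of those on a lower peak. The ZEB letters CAGGTAA stood in 2.67% of higher and 1.64% of lower windows, against 2.24% of those on a peak and 3.77% of all. The T-box letters GGTGTGA stood in 4.31% and 5.18% of higher and lower windows, against 3.55% of those on a peak. For the RUNX letters TGTGGTT the shares were 4.13% and 5.18%, against 4.02% on a peak. For the AP-1 letters TGANTCA they were 5.65% and 6.32%, against 4.8%, and for the TCF letters CTTTGAA 3.22% and 5.69%, against 3.45%. No test compared these shares. KLF letters followed by A hold a T-box match as well, so these motifs overlap.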

How the data were processed

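ATAC-seq reads were aligned and peaks called with Bowtie2, SAMtools and MACS2 on mm10, per the submitters' processing notes, which give no versions for them. The authors deposited 1 table of raw counts per peak for 8 libraries, with their own assignment of peaks to genes. Whether coordinates start at 0 or 1 is not given in the sources used here. The series' RNA libraries are not used here.

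From the counts, edgeR 4.0.16 (R 4.3.3, limma 3.58.1) fitted 1 quasi-likelihood model with a mean per population over all 8 libraries (filterByExpr, minimum count 10, TMM, robust; 4 residual degrees of freedom), with Benjamini-Hochberg adjustment over 51292 peaks or over 18407 gene sums and a threshold of 0.05. SEs are the fold change over the root of F. Fold changes are unshrunken and the procedure was tested on simulated data. The sample titles call the libraries of each population ATAC mouse replicate 1 and 2. They do not say whether mice were pooled or whether equal numbers mean the same mouse. P-values measure the spread between these libraries only. An exact permutation of 2 against 2 libraries cannot reach 0.05. The depth of each library is given above, and thinning to 5609587 counts was 1 of the alternatives.

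The rule named, for each listed gene, its peak with the smallest p, the 15 genes per direction with the largest fold among called peaks with a mean of 5 CPM or more in either group, no overlap of libraries and no predicted gene, and the 10 genes per direction with the most called peaks and none called the other way. A few genes that the rule names are not reported here. Further peaks of listed genes were named after their values were seen. The members, the 17 gene lists and the tests were chosen with earlier results of these data known, and the demand for all 5 scalings, the 200 kb windows and the list counts without gate genes were added after the data had been seen. Deviations of same-numbered SG ILC1 and liver NK libraries correlated at 0.0701, and over all pairs of populations between -0.142 and 0.203. The main fit did not treat equal replicate numbers as pairs. Such low correlations cannot exclude that same-numbered libraries shared a mouse.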

Additional observations from a re-analysis of the deposited data

Results flagged for a closer look

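SG ILC1s and liver ILC1s differed from each other, by a test of that difference under all 5 scalings, at 85 of the 141 peaks examined singly. Over all peaks 11.8% were higher and 18.6% lower in SG ILC1s by that test. These 141 include peaks chosen for their fold, and both ILC1 differences share the liver NK libraries. At 16 of the 85 the TMM estimates put the 2 ILC1 populations on opposite sides of liver NK cells. How many of all peaks do so was not counted. At 15 of these 16 one or both differences from liver NK cells were not called under all 5 scalings, so the side is not settled there, and at the Eomes promoter loess offsets put both below. The log2 fold changes of SG ILC1 over liver ILC1 at these are given here.

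Around Eomes it was 1.46 at the promoter, 2.05 at the peak 112.6 kb upstream, 0.83 at the Platr11 peak 72.8 kb upstream, 1.19 at the Gm45761 peak 8.5 kb downstream and 1.58 at the Golga4 peak 41.0 kb downstream. At the other transcription factor and receptor genes it was 1.90 at Runx3, 0.91 at Itga2, 1.66 at Klra8, 1.61 at Klra4, -3.07 at Il7r, -2.21 at Tcf7 and 2.79 at Il23r. At TGF-beta pathway genes it was 2.14 at Skil, and 1.98 and -2.53 at the intron and promoter peaks of Smad3. At the intergenic Gzmc peak it was 1.10. Il7r alone among the 16 had both ILC1 populations called against liver NK cells, in opposite directions, under all 5 scalings.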

How the results depend on the processing

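With 2 libraries a population, and liver NK libraries the shallowest of the SG ILC1 comparison, small differences at weak peaks were not detectable. Of 116 peaks examined singly and called against liver NK cells with TMM, 114 kept direction and call with loess offsets. The numbers were 112 with library totals, 112 with promoter TMM, 115 with DESeq2's Wald test and 115 after thinning. Many of these peaks were named as higher or lower, which required a call under all 5 scalings. Their agreement across scalings was thus partly fixed beforehand and does not extend to other peaks. Over all peaks, 31524 were called with TMM and 16358 under all 5 scalings. The Eomes promoter changed sign, to -0.33 with promoter TMM and -0.64 with loess offsets, as did the peak 120.5 kb upstream of Eomes (-0.37 and -0.59). The cause was not tested. Atp6v0a1 gave no value without liver NK replicate 2.

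Leaving out 1 library at a time gave 23466 to 28220 called peaks for SG ILC1s against liver NK cells and 8671 to 10679 gene sums. It gave 17457 to 24836 peaks and 6895 to 9167 gene sums against liver ILC1s, and 19613 to 20188 peaks for spleen NK cells against liver ILC1s. Only SG ILC1 and liver NK libraries were left out, so the ranges do not cover the spread of liver ILC1 or spleen NK libraries. The comparison of spleen NK cells with liver ILC1s lost none of its own libraries. Gene sums without promoter peaks gave 6957 calls against liver NK cells, and 11617 with them. Fewer genes and counts remain without promoter peaks, and the reason for the lower number was not tested. The demand for all 5 scalings left 16358 peaks and 6316 gene sums. Of peaks more open in spleen NK cells, 6.92% were higher under all 5 scalings, and 10.7% higher and 40.3% lower with loess offsets; of those more open in liver ILC1s, 17.9% were lower under all 5 and 17.0% with loess offsets.

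With the replicate number as a block, 31720 peaks and 11769 gene sums were called against liver NK cells, and 25423 and 9437 against liver ILC1s, within 1.5 times the counts without it.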
